A study of Mus musculus with 8 samples.

Results

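The 10 genes described here, Spry1, Spry2, Spry4, Spred1, Spred2, Dusp4, Dusp6, Etv4, Etv5 and Phlda1, are transcribed when receptor tyrosine kinases activate the ERK kinases, and most of their products act back on that pathway. Their members on the array were all probe sets annotated to exactly 1 of these symbols, 28 of 45101 probe sets and 10 of 18194 named genes. RNA came from microvessel fragments, with their pericytes attached, that were pulled from dissociated mouse brains at postnatal day 1 on magnetic beads carrying an antibody to PECAM, an endothelial surface protein. The mutant group was 4 brains with the PDGFRb (D849V) knock-in, a form of PDGF receptor beta that is active without ligand, and the control group was 4 wild type brains; both were on the background given as 129S/J mixed. Whether the mutants carried 1 or 2 copies of the allele, and what drives its expression beyond the gene's own locus, is not given in the sources used here. Each brain was hybridised to 1 single-colour array, and GCRMA, run by the authors, gave each probe set a log2 value.

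An active receptor tyrosine kinase recruits adaptors that switch on RAS, which starts the kinase relay from RAF through MEK to ERK. ERK enters the nucleus and turns on immediate early genes, then a second group of genes that includes brakes on the relay. Sprouty and Spred proteins dampen signalling near RAS and RAF, dual-specificity phosphatases remove the activating phosphates from ERK, and the ETS factors Etv4 and Etv5 carry the signal on to further genes. PDGF receptor beta, which pericytes need for recruitment to brain vessels, signals in part through this relay, and the transcript levels of these genes are commonly read as a measure of its output.

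No gene of the group passed the test between mutant and control microvessels, by limma with p-values adjusted over all genes (Benjamini-Hochberg). Of the 10 genes, 9 were bright enough to test, and 0 of the 9 passed, where 4.58% of the 11446 tested genes did; the adjusted p ran from 0.170 to 0.699. At an unadjusted p under 0.05 there were 2, Spry1 on the low side and Phlda1 on the high side, against 20.6% of all tested genes. The fitted difference was positive in 6 genes and negative in 3, with a median of 0.12 on the log2 scale, while 69.1% of all tested genes had a negative difference and their median was -0.11. The groups overlapped in each of the 9 genes, where they did not overlap in 14.5% of all tested genes. In a preparation of mixed cells, fewer cells of a type and less RNA per cell cannot be told apart.

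The start regions of several of these genes carry a form of the short motif bound by ETS factors, the family that includes Etv4 and Etv5, and they are shown because ETS factors are among the proteins through which ERK acts on genes. Windows before the gene start were taken for 6 of the 10 genes from RefSeq on build GRCm38.p6; Spry4, Dusp4, Etv4 and Phlda1 had no entry used here. Capitals mark CGGAAG, a form of the ETS motif, read on either strand, which appears as CTTCCG where it lies on the opposite one. Shorter or varied forms of the motif, such as GGAA alone, were not searched for and are not marked. The Spry1 window, which has no capitals, is therefore not shown to lack an ETS site. The Dusp6 and Spry1 windows are the 250 bases before the start, and the Spred1 and Spred2 windows are the part around the match; all lie on the plus strand and are written 5′ to 3′.
Dusp6, chr10:99262981-99263230: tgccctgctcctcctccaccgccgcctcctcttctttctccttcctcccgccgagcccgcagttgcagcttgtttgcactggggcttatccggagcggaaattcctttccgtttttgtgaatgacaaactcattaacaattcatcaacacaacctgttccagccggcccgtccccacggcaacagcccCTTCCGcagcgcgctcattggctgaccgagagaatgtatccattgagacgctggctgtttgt
Spred1, chr2:117121014-117121070: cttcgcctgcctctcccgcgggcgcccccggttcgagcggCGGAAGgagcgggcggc
Spred2, chr11:19924359-19924441: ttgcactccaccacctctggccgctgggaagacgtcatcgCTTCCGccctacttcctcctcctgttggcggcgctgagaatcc
Spry1, chr3:37639697-37639946: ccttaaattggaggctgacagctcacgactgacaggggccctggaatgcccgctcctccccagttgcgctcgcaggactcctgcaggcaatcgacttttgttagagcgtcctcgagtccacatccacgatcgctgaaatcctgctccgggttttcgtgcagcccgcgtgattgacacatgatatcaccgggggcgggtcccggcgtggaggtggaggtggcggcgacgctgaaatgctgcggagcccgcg
CGGAAG stood in the 250 bases before the start in 3 of the 6 genes (Dusp6, Spred1 and Spred2, once in each), and in 13.6% of the 32851 windows of that length in the table. The AP-1 site TGANTCA and the CRE TGACGTCA, searched on both strands, were in none of the 6 genes and in 6.75% and 1.55% of all windows; no match overlapped another. These matches describe the letters only.

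Sprouty proteins are membrane-bound inhibitors that are themselves induced by growth factors. Spry1 gave the largest difference of the group, with values of 6.96, 7.62, 7.73 and 7.89 on mutant arrays 1 to 4 and of 8.02, 8.40, 7.86 and 8.29 on control arrays 1 to 4. Mutant array 1 was the lowest of the 8, and only mutant array 4 and control array 3 crossed over, by 0.03. The means were 7.55 ± 0.41 and 8.14 ± 0.25 (SD, n = 4 each), a log2 difference of -0.60 (SE 0.214, 95% interval -1.09 to -0.11, limma adjusted p = 0.170), or 1.51-fold lower. Without mutant array 1 the difference was -0.40 (adjusted p = 0.234).

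Spry2 differed the other way, by 0.22 (SE 0.218, limma adjusted p = 0.587). Its mutant values were 8.24, 8.58, 8.65 and 9.31 and its control values 8.16, 8.57, 8.56 and 8.58. Mutant array 4 stood well above the other 7; without it the difference was 0.02 (adjusted p = 0.945). A dimmer Spry2 probe set read at most 2.61 on every array, near the lowest value in the table, 2.18.

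Spry4 was read by 1 bright probe set. It gave 8.63, 8.71, 8.71 and 8.72 on the mutant arrays against 8.23, 8.62, 8.59 and 8.63 on the controls, a difference of 0.17 (SE 0.107, 95% interval -0.07 to 0.42, limma adjusted p = 0.390). The mutant arrays lay within 0.1 of each other and above most of the controls, and the difference was 0.08 without control array 1, the one control that stood lower (adjusted p = 0.605). The other 3 Spry4 probe sets read no higher than 2.56 on any array, so the gene's value rests on a single probe set whose position in the transcript is not given in the sources used here.

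**Figure D1:**
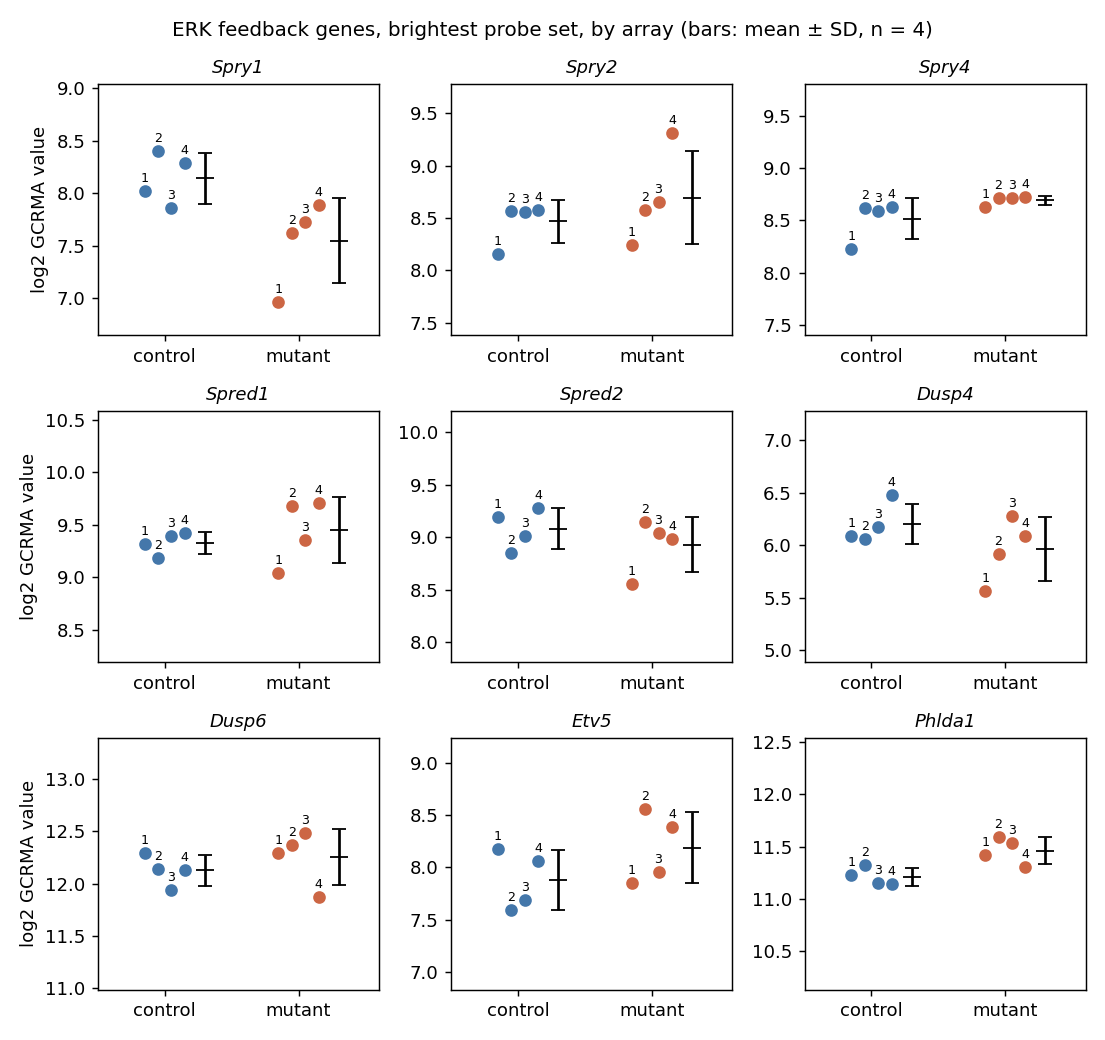
Log2 GCRMA value of the brightest probe set of each of the 9 tested genes; each point is 1 array, numbered by replicate, with the mean ± SD (n = 4) beside each group, and each panel spans the same 2.4 log2 units. The control and mutant points overlap in every panel; Spry1 reads 8.14 ± 0.25 in controls and 7.55 ± 0.41 in mutants, and Phlda1 11.21 ± 0.08 and 11.46 ± 0.13.

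Spred proteins share a C-terminal domain with the Sproutys and, with neurofibromin, keep RAS inactive. Spred1 had 8 probe sets, of which 6 were tested, 3 higher and 3 lower in the mutants, and 0 of them passed. The brightest read 9.04, 9.68, 9.36 and 9.71 in mutants and 9.32, 9.18, 9.39 and 9.42 in controls. Its mutant arrays spanned the controls on both sides, with a difference of 0.12 (SE 0.156, limma adjusted p = 0.699). It was 0.25 without mutant array 1 and 0.03 without mutant array 4, and averaging its probe sets turned the sign, to -0.02 (adjusted p = 0.910). One Spred1 probe set, 1452911_at, had groups that did not overlap: 5.94, 5.91, 6.09 and 6.01 in mutants below 6.16, 6.19, 6.28 and 6.37 in controls. Its difference was -0.26 (SE 0.088, limma adjusted p = 0.204 over all probe sets).

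Spred2, the close relative of Spred1, had 5 probe sets and 3 were tested. The brightest gave 8.55, 9.14, 9.04 and 8.98 in mutants against 9.19, 8.85, 9.01 and 9.28 in controls, a difference of -0.15 (SE 0.153, limma adjusted p = 0.592). The 2 dimmer ones differed by 0.28 and 0.27, opposite in sign to the brightest one, and averaging all 5 gave 0.10 (adjusted p = 0.696). Single arrays carried much of these values: the brightest probe set differed by -0.03 without mutant array 1, and the others by 0.02 without control array 2 and by 0.53 without control array 3.

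Dusp6 encodes the cytoplasmic phosphatase that is specific for ERK, and Dusp4 a nuclear phosphatase of the same family. Dusp6 read 12.29, 12.37, 12.48 and 11.87 on the mutant arrays and 12.29, 12.14, 11.94 and 12.13 on the control arrays. Its difference was 0.12 (SE 0.144, 95% interval -0.21 to 0.46, limma adjusted p = 0.652), an interval that runs from 0.867-fold to 1.37-fold. Mutant array 4 was the lowest of all 8; without it the difference was 0.25 (adjusted p = 0.222). Dusp4 gave 5.56, 5.92, 6.28 and 6.09 in mutants against 6.09, 6.06, 6.17 and 6.48 in controls, with mutant arrays 1 and 2 below every control. Its difference was -0.24 (SE 0.166, limma adjusted p = 0.437), and -0.11 without mutant array 1.

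Of the ETS factors, Etv5 was measured and Etv4 was not resolved. Etv5 read 7.85, 8.56, 7.96 and 8.39 in mutants and 8.18, 7.59, 7.69 and 8.06 in controls; mutant arrays 2 and 4 were above all controls, and the other mutants lay among them. The difference of 0.31 (SE 0.199, 95% interval -0.15 to 0.76, limma adjusted p = 0.407) was the largest positive one of the 9. It was 0.19 without mutant array 2, and 0.09 when averaged with the other 2 probe sets, which read at most 3.23. With the covariate for Y-linked genes it was 0.43 (limma adjusted p = 0.143). Both Etv4 probe sets stayed between 2.36 and 2.95 on every array of both groups, under the filter at a log2 value of 4, so that no change in Etv4 could be seen on these arrays.

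Phlda1, a pleckstrin homology-like protein induced by growth factors, had the narrowest interval of the 9 tested genes. It read 11.42, 11.59, 11.53 and 11.30 in mutants against 11.23, 11.32, 11.15 and 11.14 in controls. Mutant arrays 1 to 3 were above all controls, and mutant array 4 lay just under control array 2. The means of 11.46 ± 0.13 and 11.21 ± 0.08 (SD, n = 4 each) differed by 0.25 (SE 0.093, 95% interval 0.04 to 0.46, limma adjusted p = 0.185), or 1.19-fold.

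On the brightest probe set of each tested gene, the intervals bound the difference in the mixed preparation. They do not bound a change within a single cell type, or one in Etv4, which was not tested. In 8 of the 9 tested genes the 95% interval of the difference lay within a 2-fold change in either direction. The exception was Spry1, whose interval reached 0.471-fold. Among the 9 genes the half-width of the interval ran from 0.21 for Phlda1 to 0.50 for Spry2 on the log2 scale. A dimmer Spred2 probe set, 1436892_at, had a wider interval in the fit over probe sets, from -0.712 to 1.275, beyond a 2-fold change. Of the 9 gene intervals, 2 did not include 0, those of Spry1 and Phlda1, and neither gene passed after adjustment over all genes. The other fitted differences could not be told from the spread of 4 arrays a group, and the tests do not show that the genes were equal. With limma's array weights, Spry1 (-0.46, adjusted p = 0.0368) and Phlda1 (0.34, adjusted p = 0.00671) passed in opposite directions, in a setting where the calls over all genes went from 524 to 3158 of 11446. In the fit over probe sets with those weights Spry1 did not pass (adjusted p = 0.0574). Some pathway genes named further on were also followed with the weights. Of these, Fos, Egr1, Dusp1, Nras and Ptpn11 passed on the low side (limma adjusted p from 0.0122 to 0.0388). So did Il17rd (0.00257), and Errfi1 passed on the high side (0.00976). Map2k1, Gab1, Fosb, Srf and Elk3 were not followed.

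**Figure D2:**
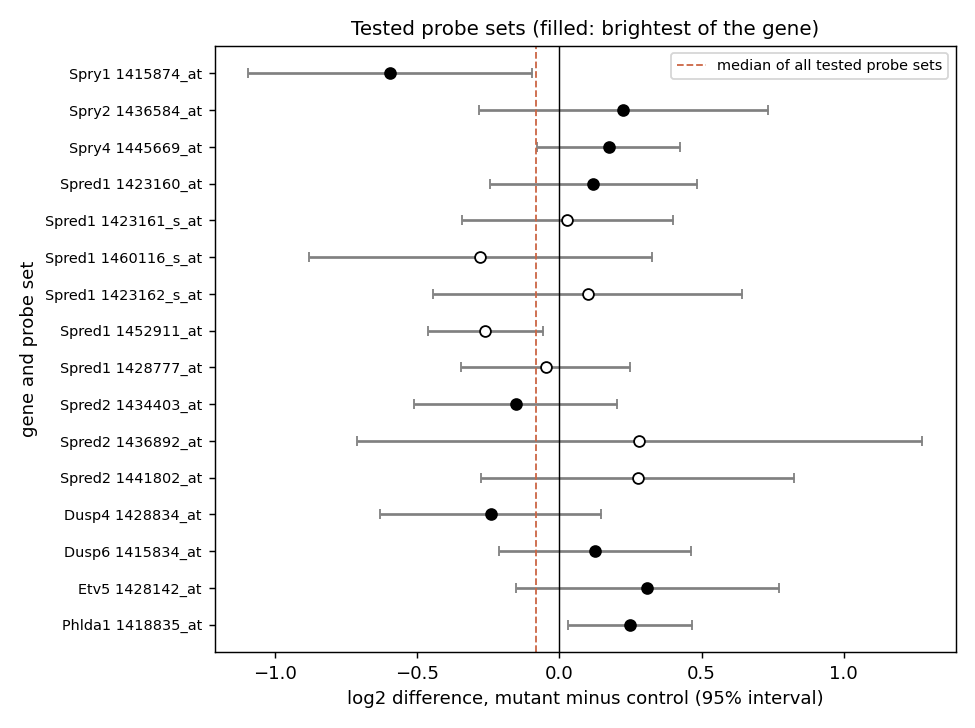
Log2 difference (mutant minus control) with its 95% interval for each of the 16 tested probe sets; filled points are the brightest probe set of a gene, and the dashed line is the median of all tested probe sets, -0.08. Of the 16 intervals, 3 do not include 0, those of Spry1, Phlda1 and Spred1 probe set 1452911_at.

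Tested singly over 22310 probe sets, 0 of the 16 bright probe sets of the group passed in limma, where 2.63% of all tested probe sets did; the adjusted p ran from 0.204 to 0.946, and 3 had an unadjusted p under 0.05, against 16.3% overall. The difference was positive in 10 and negative in 6, against a negative share of 64.6% over all, and the groups were separate in 1, against 11.3%. The other 12 probe sets read at most 3.94 on any array and 10 of them stayed under 3 on all 8 arrays. In 6 of the 10 genes there were several probe sets, and in Spry4, Spry2 and Etv5 only 1 of them rose above the filter.

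**Figure D3:**
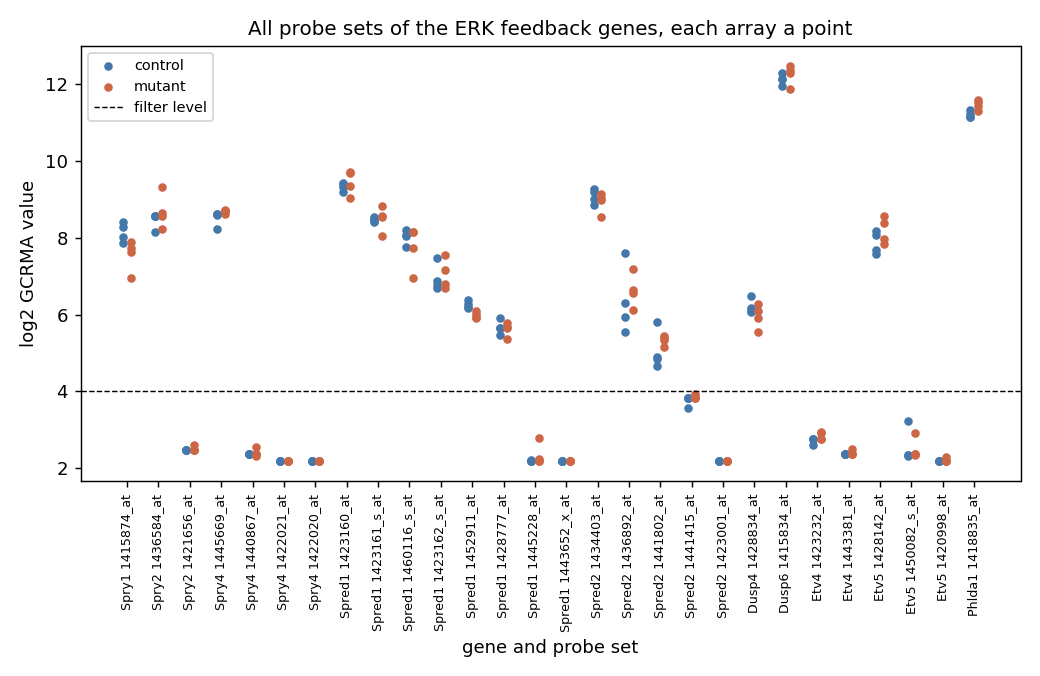
Log2 GCRMA value of all 28 probe sets on each of the 8 arrays, control and mutant side by side; the dashed line is the filter at 4. Below it lie 12 probe sets, among them both of Etv4 and 3 of the 4 of Spry4; levels of different probe sets are not comparable.

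Mutant array 1 stood low in this group of genes. It was the lowest of the 4 mutant arrays in 7 of the 9 genes and the lowest of all 8 arrays in 4, and the mean of the 9 genes, each centred on its own mean, was -0.28 there against 0.07 to 0.13 on the other mutant arrays and -0.08 to 0.11 on the controls. Over all tested genes it was the lowest mutant array in 45.6%. Without it 0 of the 9 genes passed, and the difference was 0.42 in Etv5, 0.38 in Spry2, -0.11 in Dusp4 and -0.03 in Spred2 (limma adjusted p = 0.327, 0.397, 0.739 and 0.941).

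The genes whose values, centred per gene, followed Dusp6 most closely over the 8 arrays were Sparc, a secreted matrix protein (root mean square distance 0.054), Fez2 (0.062) and Sav1, a scaffold of the Hippo pathway (0.069). For Spry4 they were Kcnj11, a potassium channel subunit (0.058), Smtnl2 (0.061) and Gm20346 (0.067). None of these 6 passed the test, with differences from 0.08 to 0.18 (limma adjusted p from 0.416 to 0.690), and a small distance is easily reached by genes that vary little. With array weights Sav1 (0.33, limma adjusted p = 0.0279) and Sparc (0.30, limma adjusted p = 0.0428) passed. A dimmer Sparc probe set differed the other way, by -0.20 (limma adjusted p = 0.455 over all probe sets).

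Upstream of the relay, of 20 receptor tyrosine kinases tested, 3 fell and none rose, where 4.58% of all tested genes passed in either direction, and the median difference was -0.21, against -0.11 over all. Pdgfrb read 11.56, 12.06, 11.83 and 11.93 on the mutant arrays against 12.87, 12.92, 12.80 and 12.82 on the controls on its brighter probe set. It fell by 1.01 (SE 0.115, limma adjusted p = 0.00132), while its dimmer probe set differed by 0.09 (adjusted p = 0.887 over all probe sets), and their average by -0.46 (adjusted p = 0.144). Which part of the altered transcript either one reads is not given here, so they check no label. Insr, the insulin receptor, fell by 0.60 (SE 0.116, adjusted p = 0.0236), and the lymphatic growth factor receptor Flt4 fell by 0.47 (SE 0.107, adjusted p = 0.0467). Both calls were close to the threshold: that of Insr was lost without any 1 array other than control array 1 (adjusted p from 0.0520 to 0.0667), and that of Flt4 without any 1 array other than mutant array 3 (adjusted p from 0.0734 to 0.146). When probe sets were averaged per gene, Insr differed by -0.21 and Flt4 by -0.26, and neither passed (limma adjusted p = 0.144 and 0.0884).

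Between the receptors and the feedback genes, 13 of the 20 genes of the RAS, RAF, MEK and ERK cascade had a probe set of a single symbol and were tested; the others were not analysed here. In limma 0 of the 13 passed and 6 had an unadjusted p under 0.05, against 20.6% of all tested genes. A negative difference in 9 of the 13 is near the 69.1% over all genes, and their median was -0.26, against -0.11. The 2 brightest were Ptpn11, the phosphatase SHP2 that relays receptor signals to RAS, at 11.31 ± 0.33 in mutants and 11.69 ± 0.10 in controls, and Nras, at 10.21 ± 0.14 and 10.51 ± 0.11 (SD, n = 4 each), with limma adjusted p of 0.234 and 0.152. On these probe sets the mutant values of both lay below all control values. The groups were separate in 4 of the 13 genes, against 14.5% of all tested genes. Of these, Ptpn11, Nras and Gab1 were lower in the mutants. Map2k1 was higher (difference 0.26, limma adjusted p = 0.161). Averaging the probe sets of each gene brought Ptpn11 from -0.38 to -0.15 and Nras from -0.30 to -0.11 (limma adjusted p = 0.294 and 0.453).

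Of a list of transcription factors and a cyclin that act downstream of ERK, not all of them induced by it, 17 were tested and 0 passed in limma. An unadjusted p under 0.05 was found in 6, against 20.6% of all tested genes, and a negative difference in 14, against 69.1%, with a median of -0.24, against -0.11. The groups were separate in 4, against 14.5%: Fosb, Srf, Elk3 and Fos, all lower in the mutants. Chosen after their values were seen, Fosb (difference -1.18), Srf (-0.33) and Elk3 (-0.32) came nearest to the threshold (limma adjusted p = 0.0686, 0.0883 and 0.0898). Fos, an early target of ERK, read 14.31 ± 0.12 in mutants and 14.59 ± 0.13 in controls, and Egr1 13.32 ± 0.28 and 13.64 ± 0.13 (SD, n = 4 each; limma adjusted p = 0.167 and 0.272). These immediate early genes also respond to tissue dissociation, to which both groups were exposed.

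Relatives of the feedback genes, other dual-specificity phosphatases and further inhibitors of receptor signalling among them, gave 0 calls in 14 tested in limma, with 2 at an unadjusted p under 0.05 (20.6% over all genes), 11 negative differences (69.1% over all) and a median of -0.13 (-0.11 over all). Dusp5 counts among the negative ones at -0.00067, with 6.3 on every array. The groups were separate in 2, Dusp1 and Il17rd, both lower in the mutants, against 14.5% of all tested genes. Dusp1, a phosphatase of several MAP kinases, read 12.56 ± 0.07 in mutants and 12.75 ± 0.10 in controls, and Rasa1, a GTPase-activating protein for RAS, 10.54 ± 0.15 and 10.73 ± 0.12 (SD, n = 4 each; limma adjusted p = 0.253 and 0.324). A further pair, chosen after their values were seen, came nearest to the threshold in opposite directions. Il17rd, also called Sef, an inhibitor of FGF signalling induced along with the Sproutys, read 7.34, 8.20, 7.84 and 7.98 in mutants, all below the controls at 8.71, 8.39, 8.61 and 8.52 (difference -0.72, limma adjusted p = 0.0658); without mutant array 2 it passed, at -0.84 (adjusted p = 0.0471), while the average of its probe sets differed by -0.36 (adjusted p = 0.0993). Errfi1, an inducible inhibitor of EGF receptors, ranged from 9.58 to 10.14 in mutants against 8.74 to 9.59 in controls, where mutant array 1 and control array 2 met (difference 0.69, limma adjusted p = 0.0933). Its dimmer probe set differed by 1.44 and passed over all probe sets (limma adjusted p = 0.0187), as did the average of its probe sets in the fit over genes (1.06, limma adjusted p = 0.00197).

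**Figure D4:**
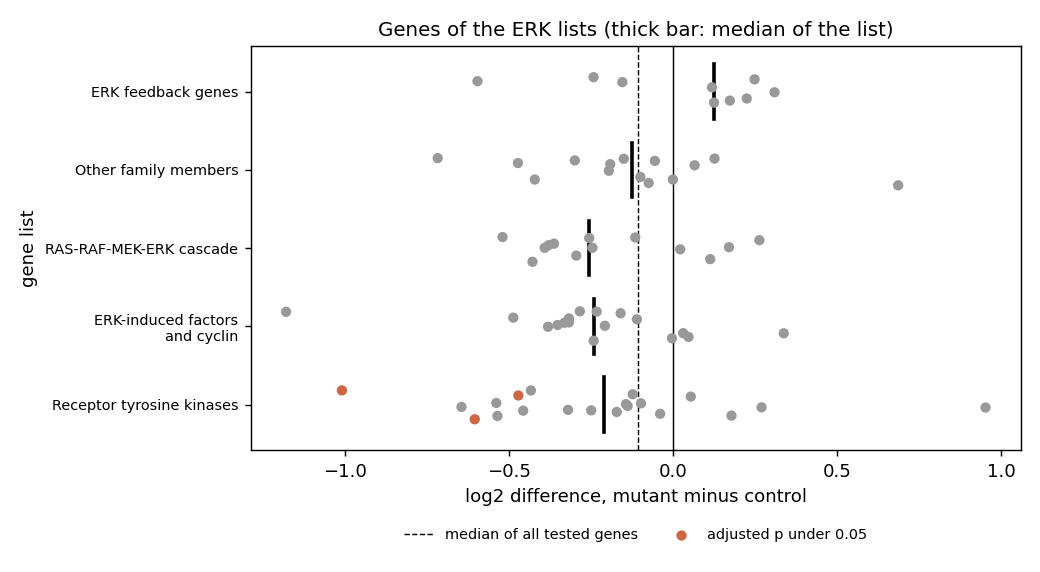
Log2 difference (mutant minus control) of every tested gene in 5 lists; each point is a gene, coloured where the limma adjusted p was under 0.05, the thick bar is the median of the list and the dashed line that of all tested genes, -0.11. The feedback genes have a median of 0.12 and the other lists medians between -0.26 and -0.13, and the 3 coloured points are Pdgfrb, Insr and Flt4.

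The cells in the preparation were checked by markers fixed with the lists. Endothelial markers (10 of 10) and pericyte and smooth muscle markers (10 of 10) were above the filter. In limma none of the former and only Pdgfrb of the latter passed, where 4.58% of all tested genes did. An unadjusted p under 0.05 was found in 4 of each, against 20.6% of all tested genes. The difference was negative in 9 of the endothelial and 7 of the pericyte and smooth muscle markers, against 69.1% over all. Their medians were -0.23 and -0.27, against -0.11 over all. Microglia and macrophage markers moved with the groups: 9 of 9 tested rose, with a median difference of 2.21, and the log2 of their summed level was 11.42 to 12.22 on the controls and 13.32 to 14.19 on the mutants; the other one, Itgam, was at the floor on all arrays. Markers of neurons (10 tested), astrocytes and radial glia (10), the oligodendrocyte lineage (6) and erythroid cells (2) gave 0 calls in limma, and only among the neuron markers were there any, 2, at an unadjusted p under 0.05. The difference was negative in 3, 2, 2 and 0 of these markers, in that order, against 69.1% over all. Their medians were 0.16, 0.20, 0.25 and 0.10, so a positive median was not particular to the feedback genes. The log2 summed level of the neuron markers was 11.03 to 11.94 on the controls and 11.41 to 12.31 on the mutants. The mean log2 value of the astrocyte and radial glia markers was 10.01 to 10.36 on the controls and 9.64 to 11.03 on the mutants. That of the oligodendrocyte lineage was 7.73 to 8.04 on the controls and 7.31 to 8.88 on the mutants. Mutant array 1 was the lowest of all arrays in both of these lists. The part that these cells play in the values of the feedback genes was not tested. Between arrays, Pearson correlations over all probe sets ran from 0.988 to 0.995 within groups and from 0.977 to 0.991 between them.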

How the data were processed

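The authors deposited log2 expression values per probe set, made with GCRMA per the submitters' processing notes, version not given in the sources used here. The method models background by probe sequence and equalises arrays by quantiles, so that dim probe sets collect near a floor. Per the labels, 6 ug of total RNA went into each labelled cRNA. Their range, 2.18 to 16.49, showed the log2 scale. Arrays carry no counts; their number, 4 per group, limits the precision.

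Of 45101 probe sets, 34958 had 1 symbol in the platform annotation, 932 several and 9211 none. Each of 18194 genes was represented by its probe set with the highest mean; genes and, in a fit of their own, single probe sets above 4 on at least 4 arrays were tested with limma 3.58.1 in R 4.3.3 (lmFit, eBayes, two-sided), adjusted by Benjamini-Hochberg over everything tested, with a threshold of 0.05. Named genes were all members, Pdgfrb, the genes of each pathway list that passed or else its 2 brightest, and the 3 genes nearest to Dusp6 and to Spry4. Further genes of the lists were named after their values were seen. The members and lists were chosen with earlier results of these data known. Separate brains are the replicates; no litter, preparation day or scan date was given, so no batch could be tested. Eif2s3y, a Y-linked gene, read 10 to 10.43 on mutant arrays 1, 3 and 4 and control arrays 2 and 3. On the other arrays it read 2.18 to 2.30, so the groups held both sexes in unequal shares. Alternatives were the filter, normalization, replicate block, choice of probe set, a covariate for Y-linked genes, weighted arrays, eBayes settings, the threshold and each array left out.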

Additional observations from a re-analysis of the deposited data

Results flagged for a closer look

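In the 32 groups of 4 arrays formed by the 16 tested probe sets, 3 had an array far from the others by Dixon's ratio at its 95% critical value; chance gives about 1 in 20. Control array 1 was low in Spry2 (8.162 against 8.562 to 8.581 on the other controls) and in Spry4 (8.231 against 8.593 to 8.633). Mutant array 1 was low in Spry4 (8.633 against 8.708 to 8.716), where the whole spread was under 0.1 on the log2 scale.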

How the results depend on the processing

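The count of feedback genes and of their probe sets past the threshold was 0 in each alternative, the filter, normalization, choice of probe set, Y-linked covariate, eBayes settings and threshold among them, except array weights, where it was 2 genes (Phlda1 higher, Spry1 lower) and 2 probe sets (that of Phlda1 higher, Spred1 1452911_at lower). With those weights 3158 of all 11446 tested genes and 3937 of all 22310 tested probe sets passed. Leaving out each array in turn gave 0 to 0 for the feedback genes and for their probe sets. The replicate numbers do not pair the arrays (correlations of deviations between same-numbered arrays of -0.08, -0.48, -0.20 and 0.30), and the replicate block gave 0 genes and 0 probe sets of the group, with 259 calls over all genes against 524. The calls over all genes ran from 264 to 540 with an array left out.

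Signs turned in these cases. With the mean of probe sets the difference was -0.0247 for Spred1, 0.0992 for Spred2 and -0.0209 for Sparc. With probe sets without a suffix preferred it was 0.0874 for Pdgfrb. With arrays centred on their median it was -0.000846 for Spred1 probe set 1423161_s_at, and with array weights 0.0528 for 1428777_at and 0.000212 for 1460116_s_at, which differed by -0.28 without weights. With an array left out, differences ran from -0.0875 to 0.180 for 1423161_s_at, from -0.0683 to 0.274 for 1423162_s_at, from -0.119 to 0.0375 for 1428777_at and from -0.00855 to 0.106 for Kcnj11. The cause was not tested. With the mean of its probe sets, Spry4 fell under the filter and was not tested. Values near the floor, those of Etv4 among them, are not resolved.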
